A study of Homo sapiens with 6 samples.

Results

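The mitosis genes are 58 genes that work from mitotic entry to cytokinesis: the cyclins that drive CDK1 and the CDC25 phosphatases, mitotic kinases, the spindle checkpoint, partners of the anaphase-promoting complex, kinesins, centromere and kinetochore proteins, spindle proteins, cytokinesis factors, chromosome structure proteins and the transcription factor FOXM1. They were listed by function and found by gene symbol among the 20046 genes that the array's annotation names, and all 58 had a probe. Expression was measured once per condition, with 1 Illumina HumanHT-12 v4 array for each of 6 conditions of HMLE cells, a human mammary epithelial line immortalized with telomerase and a viral large T antigen. Vector cells carried the control vector; Snail cells ectopically expressed Snail, a transcription factor that starts an epithelial-mesenchymal transition (EMT); and TGF-β cells received the ligand at 1 ng/mL according to the labels (the study's culture methods give a higher concentration, without reference to the arrays). Each of the 3 was profiled without and with 20 μM docosahexaenoic acid (DHA), an ω-3 fatty acid that the study fed to cells to stabilize lipid raft domains of the plasma membrane. The array without inducer and with DHA is called DHA here, and the others Vector, Snail, Snail+DHA, TGF-β and TGF-β+DHA.

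According to the study's methods, Snail came from a retroviral vector in stably expressing cells, and DHA was given bound to albumin. The sources used here do not state the time under TGF-β or DHA before the RNA was taken, the cell density, or whether the cells without DHA received the albumin carrier. The study's text calls the cells without inducer a vehicle control, where the labels call them Vector. No condition was repeated, so a difference between 2 arrays has no replicate check and carries no p-value. Tests were possible only where several arrays share a factor, and their error is then the disagreement between cell backgrounds.

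Mitotic transcripts are made in a burst each cell cycle. The DREAM complex, which contains RB family proteins, represses them in resting and G1 cells, and in G2 the MYB-MuvB complex and FOXM1 activate them, largely through a short element called the CHR together with CCAAT boxes bound by NF-Y. Their level in a population therefore follows how many cells are in G2 and mitosis and how strongly each of these cells transcribes the genes. In RNA from bulk cells, fewer cells of a kind and less RNA per cell cannot be told apart.

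The shared promoter elements were looked up in RefSeq windows (GRCh38.p14) that run from 250 bases before to 50 bases after a gene's start, for the 48 mitosis genes that matched. The CHR core TTTGAA, read on either strand, occurred in 35 of the 48, or 72.9%, against 18.2% of all 27305 genes with a window and 6.98% of 43 genes of DNA replication and the G1/S transition. CCAAT, on either strand, occurred in 77.1% of the mitosis genes, 60.5% of the replication and G1/S genes and 39.7% of all genes. Both motifs together occurred in 58.3%, 4.65% and 7.26%. Matches of the 2 motifs were counted separately, and matches may overlap, as 2 CCAAT matches on opposite strands do in HMMR. The 130 bases before the start are shown for 4 genes, with both motifs in capitals on whichever strand they were read: HMMR (hyaluronan-mediated motility receptor, a spindle protein) and KIF20A (a central spindle kinesin), which were among the members with the lowest DHA values relative to Vector, the latter without the CHR core, CCNB2 (cyclin B2), and PLK1 (polo-like kinase 1), whose DHA difference was among the smallest. All are on the plus strand, HMMR at chr5:163460502-163460631, CCNB2 at chr15:59105016-59105145, PLK1 at chr16:23678759-23678888 and KIF20A at chr5:138178982-138179111. 
HMMR: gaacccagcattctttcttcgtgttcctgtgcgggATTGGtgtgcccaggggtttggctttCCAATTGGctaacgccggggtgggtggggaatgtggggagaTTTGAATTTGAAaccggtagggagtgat 
CCNB2: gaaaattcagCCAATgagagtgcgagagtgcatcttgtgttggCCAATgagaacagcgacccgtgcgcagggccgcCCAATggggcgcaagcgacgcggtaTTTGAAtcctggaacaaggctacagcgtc 
PLK1: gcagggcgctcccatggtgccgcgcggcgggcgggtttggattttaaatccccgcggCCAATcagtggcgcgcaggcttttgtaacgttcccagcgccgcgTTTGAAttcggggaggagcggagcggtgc 
KIF20A: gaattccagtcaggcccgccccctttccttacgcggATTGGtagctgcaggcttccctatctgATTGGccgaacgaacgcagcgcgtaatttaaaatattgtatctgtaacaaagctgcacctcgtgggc

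HMMR held the core as 2 adjacent copies, and CCNB2 and PLK1 held 1 each at the same distance from the start. In KIF20A the letters TTTGAA were absent from the window, and other forms of the CHR were not searched in any gene. A motif match is a description of the sequence and does not show that a factor binds there.

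Levels below are log2 signals of the authors' quantile-normalized table, taken from the probe with the highest mean for each gene, and a difference of 1 is a 2-fold change. A gene entered a comparison of 2 arrays if its signal was above background on at least 1 of them. Of the 58 members, 57 were above background on at least 1 array and 56 on all 6. NCAPH, a condensin subunit, was above background on none, with values between 6.04 and 6.23, and has no further part in the results. MKI67, the Ki-67 protein that coats mitotic chromosomes, was not above background on the DHA array.

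The mitosis genes were lowest on the DHA array. There, 28 of 57 members (49.1%) were at least 2-fold lower than on the Vector array and 0 were 2-fold higher, where 1.31% of the 12255 genes compared were lower and 0.302% higher. The median difference of the members was -0.99, with quartiles of -1.25 and -0.78, beside a median of -0.01 over all genes. BUB3 was the single member with a value above that of Vector. Of the 161 genes that were at least 2-fold lower on the DHA array, 28 (17.4%) were mitosis genes. The members cluster near the threshold, since 15 lay within 0.1 of a difference of -1. The share of probes above background was 44.1% on the Vector array and 41.4% on the DHA array, and the part of this in the result was not tested. Scaled to a common median, with no quantile normalization, the members' median was -1.33 against -0.22 over all genes, and 45 members were 2-fold lower.

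**Figure D1:**
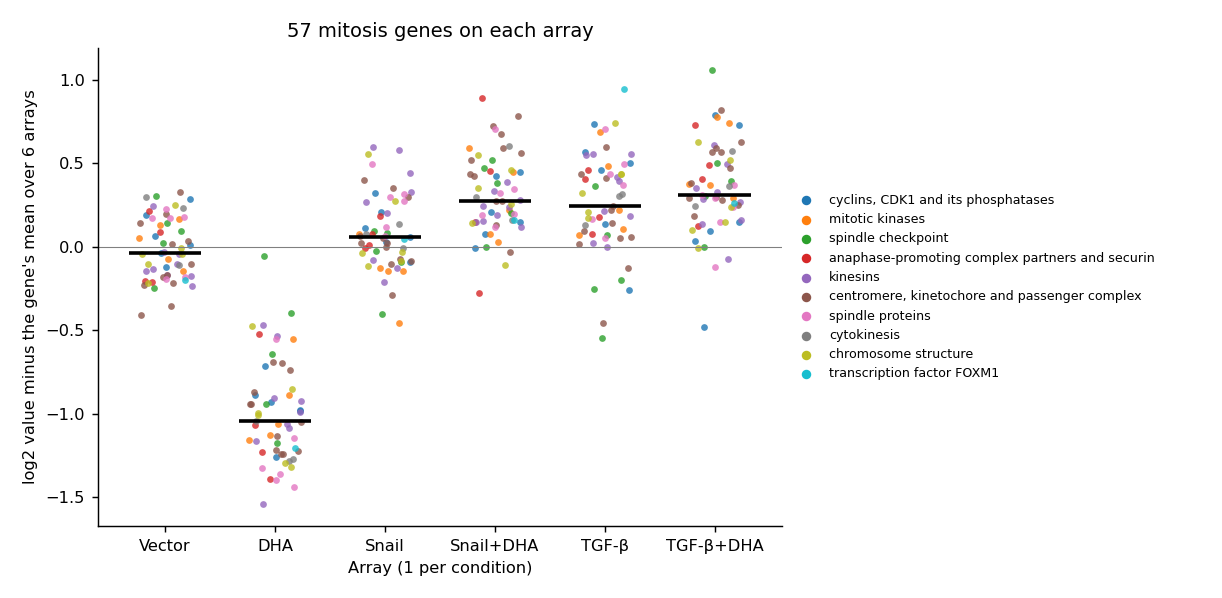
Log2 value of each of 57 mitosis genes on each of the 6 arrays (horizontal axis), minus that gene's mean over the 6 arrays (vertical axis); points are genes, colored by role, and black bars are medians over genes. The DHA array lies below the other 5, and 56 of the 57 genes have their lowest value there.

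The DHA array was the lowest of all 6 for 56 of the 57 members, where 15.5% of the 13478 genes above background on any array had their lowest value there. BUB3, lowest on the TGF-β array, was the exception. The DHA value lay a median of 0.92 below the lowest of the other arrays, while those 5 arrays spanned a median of 0.68. The gap was larger than the span for 35 members, and how often this holds over all genes was not computed. The highest value was on the TGF-β+DHA array for 20 members, TGF-β for 18, Snail+DHA for 13, Snail for 5 and Vector for 1. The same tally over all genes was not computed, so these counts have no share to be set against.

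Among cyclins, CDK1 and its phosphatases, all 6 genes were lower on the DHA array than on the Vector array, with differences of -0.78 to -1.27, and 3 by at least 2-fold. Cyclin B1 (CCNB1) and cyclin B2 activate CDK1 at mitotic entry, and cyclin A2 (CCNA2) serves from S phase to G2. CCNB1 measured 9.89 in Vector cells and 8.63 with DHA, 9.52 in Snail cells and 9.76 with DHA, and 10.11 in TGF-β cells and 9.76 with DHA. CDK1, the kinase itself, measured 9.87 in Vector cells and 8.88 with DHA, 9.92 in Snail cells and 10.30 with DHA, and 9.60 in TGF-β cells and 10.58 with DHA. Its DHA array was 0.72 below the next lowest array, while the 2 induced cell types with DHA were the highest. The values of CCNA2 were 9.20 in Vector, 8.06 in DHA, 9.35 in Snail, 9.75 in Snail+DHA, 9.46 in TGF-β and 10.11 in TGF-β+DHA, the same order of DHA and induced cells with DHA at the extremes. CDC25B and CDC25C remove the inhibitory phosphates from CDK1. CDC25B stood at 9.82, 10.07 and 10.48 in Vector, Snail and TGF-β cells without DHA, and at 9.04, 9.83 and 9.27 with it, so that its lowest array was again DHA but TGF-β+DHA was nearly as low.

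The mitotic kinases AURKA, AURKB, PBK, MELK and PLK1 were lower on the DHA array than on the Vector array, with differences of -0.41 to -1.26, and 3 of 5 by at least 2-fold. AURKA matures centrosomes and assembles the spindle poles. AURKA measured 10.94 in Vector cells and 9.68 with DHA, 10.68 in Snail cells and 10.88 with DHA, and 11.49 in TGF-β cells and 11.18 with DHA. Its second probe gave a DHA difference of -1.14 beside -1.26 for the first. PLK1 acts at centrosomes, kinetochores and the cleavage site. The values of PLK1 were 7.22 in Vector, 6.81 in DHA, 7.22 in Snail, 7.81 in Snail+DHA, 7.47 in TGF-β and 7.66 in TGF-β+DHA, a DHA difference of -0.41, smaller than the 0.60 spanned by the other 5 arrays. MELK, a kinase of the AMPK family with a G2 and M phase peak, was the member with the lowest Snail value relative to Vector. MELK gave 10.06 (Vector), 9.01 (DHA), 9.44 (Snail), 10.12 (Snail+DHA), 10.12 (TGF-β) and 10.63 (TGF-β+DHA).

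The spindle checkpoint held the member that did not follow the others. This checkpoint delays anaphase until every kinetochore is attached: TTK and BUB1 start the signal at kinetochores, and MAD2L1, BUB1B and BUB3 bind and hold CDC20. TTK and BUB1 differed by -1.31 and -1.25 between the DHA and Vector arrays. BUB1B stood at 7.59, 7.41 and 7.30 in Vector, Snail and TGF-β cells without DHA, and at 7.10, 7.70 and 7.89 with it. BUB3, which also has roles outside mitosis, measured 11.89 in Vector cells and 12.08 with DHA, 12.24 in Snail cells and 12.61 with DHA, and 11.89 in TGF-β cells and 12.14 with DHA. Its other 3 probes gave DHA differences of 0.03, -0.08 and -0.21, so the gene lay near 0 by each of them. MAD2L1 had the largest spread of the members over the 5 arrays other than DHA, 1.61. MAD2L1 gave 8.96 (Vector), 8.29 (DHA), 8.54 (Snail), 9.46 (Snail+DHA), 8.39 (TGF-β) and 10.0003 (TGF-β+DHA). It was thus higher with DHA in both induced cell types and lower with DHA in Vector cells.

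All 4 partners of the anaphase-promoting complex and securin were lower on the DHA array, 2 of them at least 2-fold. UBE2C, the ubiquitin-conjugating enzyme that starts chains on the complex's substrates, had a difference of -1.48. UBE2C measured 12.10 in Vector cells and 10.62 with DHA, 12.20 in Snail cells and 12.46 with DHA, and 12.19 in TGF-β cells and 12.50 with DHA. The 5 arrays other than DHA lay within 0.40 of each other, and DHA was 1.48 below the lowest. CDC20, the activator of the complex, differed by -0.86. PTTG1 (securin), the inhibitor that is degraded to release separase, was lower with DHA in all 3 cell types. PTTG1 stood at 13.34, 13.13 and 13.59 in Vector, Snail and TGF-β cells without DHA, and at 12.61, 12.85 and 13.25 with it. CDCA3 promotes mitotic entry by helping to remove the WEE1 kinase. The values of CDCA3 were 8.45 in Vector, 7.43 in DHA, 8.74 in Snail, 9.55 in Snail+DHA, 8.73 in TGF-β and 9.06 in TGF-β+DHA.

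All 9 kinesins were lower on the DHA array than on the Vector array, with differences of -0.37 to -1.41, and 3 by at least 2-fold. KIF20A, which carries passenger proteins to the central spindle, had the widest difference. KIF20A gave 9.71 (Vector), 8.29 (DHA), 10.44 (Snail), 10.08 (Snail+DHA), 10.39 (TGF-β) and 10.13 (TGF-β+DHA). KIF11, the motor that pushes the spindle poles apart, measured 8.45 in Vector cells and 7.41 with DHA, 9.07 in Snail cells and 8.73 with DHA, and 8.89 in TGF-β cells and 8.42 with DHA. Both were also lower with DHA in Snail and in TGF-β cells, with differences of -0.27 to -0.47. KIF2C, a microtubule depolymerase, was higher with each inducer alone than in Vector cells. KIF2C stood at 8.42, 8.99 and 9.22 in Vector, Snail and TGF-β cells without DHA, and at 7.74, 8.78 and 8.82 with it. KIF15, which shares the work of KIF11, had one of the smallest DHA differences. The values of KIF15 were 7.11 in Vector, 6.74 in DHA, 7.48 in Snail, 7.46 in Snail+DHA, 7.28 in TGF-β and 7.60 in TGF-β+DHA.

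All 12 centromere, kinetochore and passenger complex genes were lower on the DHA array, with differences of -0.51 to -1.41, and 5 by at least 2-fold. CENPE, a kinetochore motor, had the widest difference, and NDC80, the microtubule-binding arm of the kinetochore, had -1.25. NDC80 measured 8.34 in Vector cells and 7.09 with DHA, 8.61 in Snail cells and 9.09 with DHA, and 8.18 in TGF-β cells and 8.56 with DHA. Its partner SPC25, which anchors the complex at the inner kinetochore, had the smallest difference of the 12, -0.51. SPC25 gave 7.39 (Vector), 6.88 (DHA), 7.62 (Snail), 8.29 (Snail+DHA), 7.11 (TGF-β) and 8.14 (TGF-β+DHA). HJURP is the chaperone that loads CENPA, the centromeric histone. HJURP stood at 7.80, 8.05 and 8.38 in Vector, Snail and TGF-β cells without DHA, and at 6.92, 8.83 and 8.98 with it, with both DHA-fed induced arrays highest. The values of CENPN were 10.63 in Vector, 9.57 in DHA, 10.24 in Snail, 10.28 in Snail+DHA, 10.36 in TGF-β and 10.78 in TGF-β+DHA. CENPN, an inner kinetochore protein, was lower in Snail and TGF-β cells than in Vector cells, though by less than with DHA alone. CENPF, a large protein of the outer kinetochore, measured 7.49 in Vector cells and 6.85 with DHA, 8.11 in Snail cells and 8.14 with DHA, and 7.81 in TGF-β cells and 7.90 with DHA. CDCA8 (borealin), a subunit of the chromosomal passenger complex with AURKB and BIRC5 (survivin), measured 8.09 in Vector cells and 7.56 with DHA, 8.52 in Snail cells and 9.02 with DHA, and 8.94 in TGF-β cells and 8.89 with DHA.

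Spindle proteins included the largest differences of the set, 4 of 6 genes at least 2-fold lower and a median of -1.52. ASPM focuses microtubules at the spindle poles. The values of ASPM were 9.88 in Vector, 8.26 in DHA, 9.72 in Snail, 9.78 in Snail+DHA, 10.36 in TGF-β and 9.95 in TGF-β+DHA, a 3.08-fold lower signal on the DHA array than on the Vector array. HMMR, whose promoter is shown above, measured 9.72 in Vector cells and 8.11 with DHA, 9.87 in Snail cells and 9.89 with DHA, and 9.92 in TGF-β cells and 9.78 with DHA. Its other 5 arrays lay within 0.20, and the DHA array was 1.62 below them. NUSAP1, which bundles spindle microtubules, and DLGAP5, which stabilizes kinetochore fibers, were 2.89-fold and 2.83-fold lower on the DHA array. GTSE1, a microtubule-binding protein that also restrains p53 in G2, had one of the smallest differences, -0.36. GTSE1 stood at 7.70, 8.01 and 7.94 in Vector, Snail and TGF-β cells without DHA, and at 7.34, 8.60 and 7.77 with it.

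The 3 cytokinesis genes were each more than 2-fold lower: ANLN (anillin), the scaffold of the contractile ring (-1.50), ECT2, the activator of RhoA at the equator (-1.34), and PRC1, which cross-links midzone microtubules (-1.17). The 5 chromosome structure genes above background on every array ranged from -0.79 to -1.55. TOP2A (topoisomerase IIα), which untangles sister chromatids, had the widest of these. TOP2A gave 11.38 (Vector), 9.83 (DHA), 11.41 (Snail), 11.02 (Snail+DHA), 11.87 (TGF-β) and 11.28 (TGF-β+DHA). It was lower with DHA in all 3 cell types, with differences of -1.55, -0.38 and -0.59. SMC4, a core subunit of condensin, measured 9.45 in Vector cells and 8.56 with DHA, 10.10 in Snail cells and 9.90 with DHA, and 9.76 in TGF-β cells and 9.55 with DHA. Ki-67 (MKI67) lay near background. The values of MKI67 were 6.61 in Vector, 6.18 in DHA, 6.62 in Snail, 6.80 in Snail+DHA, 6.98 in TGF-β and 6.76 in TGF-β+DHA, and as it was not above background on the DHA array, its signal there was at least 1.15-fold lower than in Vector cells.

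FOXM1, the forkhead factor that drives many of the other genes in G2, measured 7.86 in Vector cells and 6.86 with DHA, 8.11 in Snail cells and 8.22 with DHA, and 9.002 in TGF-β cells and 8.32 with DHA. Its DHA difference in Vector cells was -1.001, and the TGF-β array carried its highest value.

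**Figure D2:**
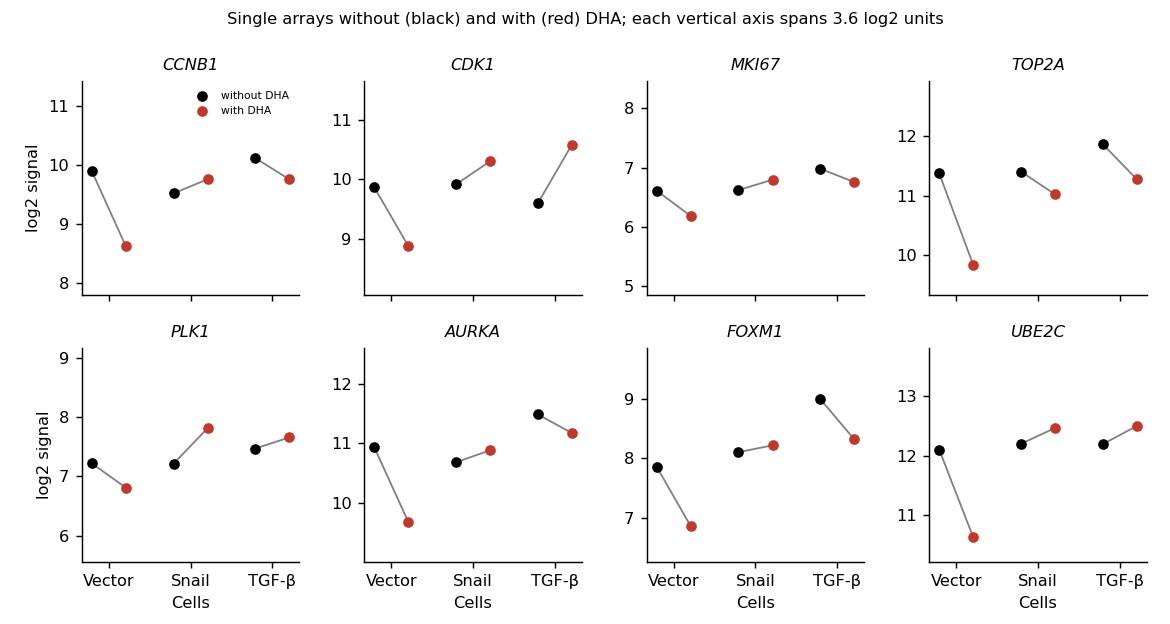
Log2 signal (vertical axis) of CCNB1, CDK1, MKI67, TOP2A, PLK1, AURKA, FOXM1 and UBE2C in Vector, Snail and TGF-β cells (horizontal axis), 1 array per point, without DHA (black) and with DHA (red), lines joining the 2 arrays of a cell type. DHA is lower in Vector cells for all 8 genes, from -0.41 for PLK1 to -1.55 for TOP2A, and in induced cells the lines run in both directions.

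Differences varied with level and probe. Of the 57 members, the 14 with a Vector level under 8 had a median DHA difference of -0.68, and the 43 at 8 or more had -1.05. Across the 57 genes, which are not independent, the difference correlated with the Vector level at r = -0.335. The Vector level is part of both quantities, which by itself can push r below 0, and the same holds for the split at 8. For the 22 members with several probes, 24 of the 25 further probes above background were also lower on the DHA array, 7 at least 2-fold, with a median of -0.68. The 35 genes with TTTGAA in the window had a median DHA difference of -0.96 and the 12 matched genes without these letters -1.02.

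DHA in induced cells gave another picture. In Snail cells 0 of 57 members were 2-fold higher with DHA and 0 lower, beside 1.3% and 2.4% of 11583 genes. The median was 0.23 against -0.03 over all genes, and 43 members were above 0. MAD2L1 (0.92), CDCA3 (0.81) and HJURP (0.78) had the highest values, and TOP2A (-0.38), KIF20A (-0.35) and KIF11 (-0.34) the lowest. In TGF-β cells 2 members were at least 2-fold higher with DHA, MAD2L1 (1.61) and SPC25 (1.02), with CDK1 (0.99) next to them, and 1 was lower, CDC25B (-1.21), followed by FOXM1 (-0.68) and TOP2A (-0.59). Over all 12100 genes 2.04% were higher and 3.61% lower. The median of the members was 0.09 against -0.04. Under common-median scaling the members' medians turned to -0.02 in Snail cells and -0.08 in TGF-β cells, while those of all genes were -0.19 and -0.16, so the sign of these small shifts depends on the scaling and their position above the median of all genes does not.

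By role, the 5 mitotic kinases and the 12 centromere and kinetochore genes were all higher with DHA in Snail cells, with medians of 0.52 and 0.43, and kinesins had a median of -0.12 with 6 of 9 lower. In TGF-β cells the checkpoint genes had a median of 0.43, while cyclins and CDK1 regulators had -0.36 and spindle proteins -0.15. Under common-median scaling the kinase and kinetochore medians in Snail cells were 0.25 and 0.17. The shares of probes above background were 41.6% and 36.7% on the Snail and Snail+DHA arrays and 43.2% and 39.7% on the TGF-β and TGF-β+DHA arrays, and their part in these differences was not tested.

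**Figure D3:**
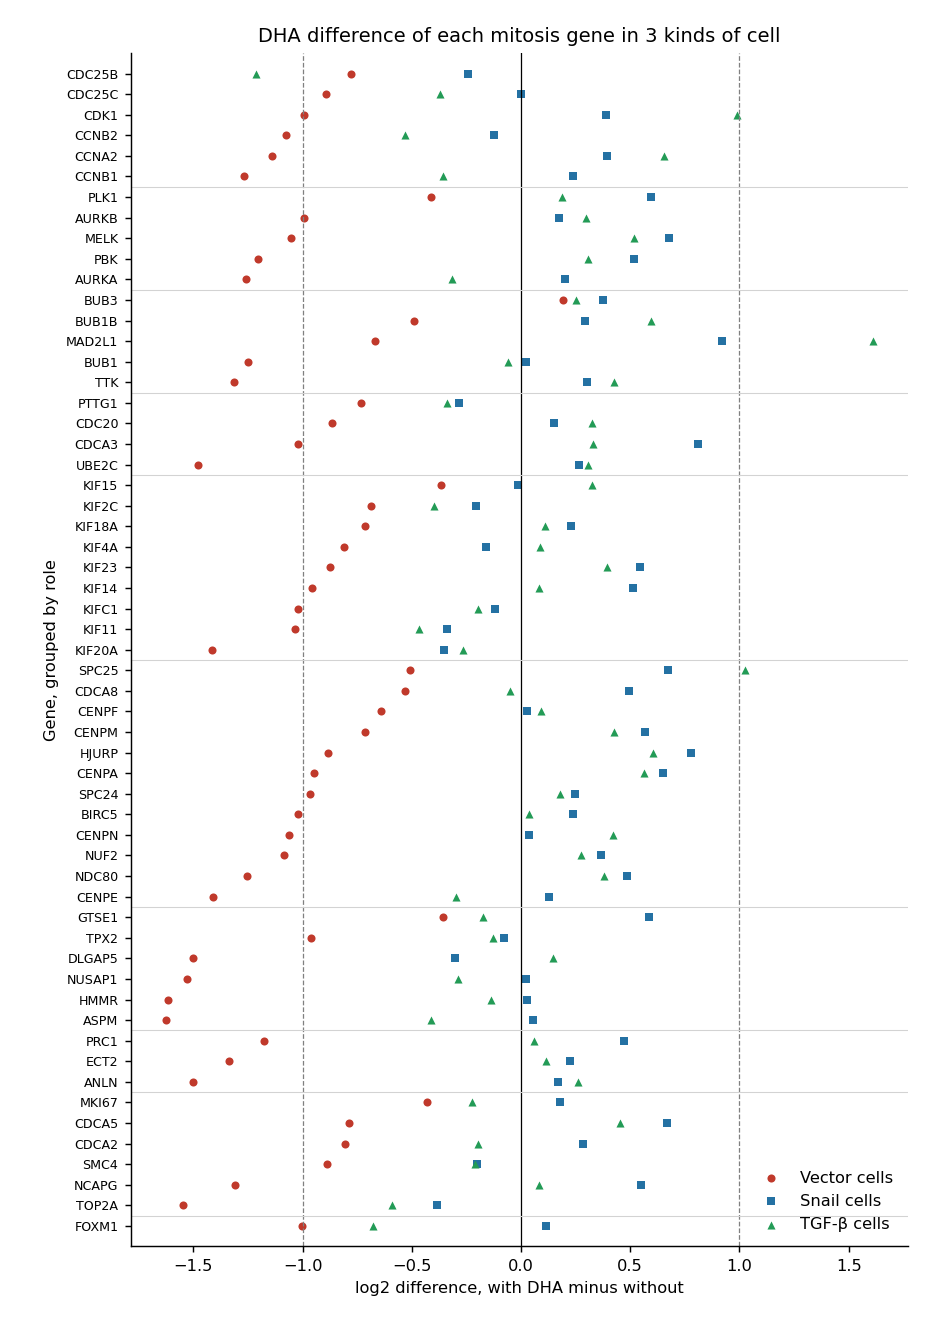
Log2 difference with DHA minus without (horizontal axis) for each of 57 mitosis genes (vertical axis, grouped by role and ordered by the Vector difference), in Vector (circles), Snail (squares) and TGF-β cells (triangles), 1 pair of arrays each; dashed lines mark 2-fold. The circles lie left of both other symbols for 56 genes, and 28 lie at or beyond the left dashed line.

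The difference between cell types was tested in a fit of inducer, DHA and the interaction of DHA with induction (limma), which compares the DHA difference of Vector cells with the mean of those in Snail and TGF-β cells. It has 1 residual degree of freedom per gene, which comes from the disagreement between the induced cell types. The Vector and DHA arrays are fitted exactly, so the error and p of this contrast do not cover the spread of that pair. The contrast was below 0 for all 57 members, with a median of -1.21 beside 0.02 over all genes. After Benjamini-Hochberg adjustment over 13478 genes 1 member passed 0.05, UBE2C, at -1.77 ± 0.29 (SE, adjusted p = 0.0382 in limma), beside 0.141% of genes called in this direction and 0.148% in the other. UBE2C no longer passed with restored intensities (adjusted p = 0.0913 in limma), with common-median scaling (0.108) or among genes above background on all 6 arrays (0.0764). At an unadjusted p under 0.05 there were 43 members, all lower in Vector cells, and 5.38% of all genes were lower at this level. On simple counts the DHA difference in Vector cells lay below those of both induced cell types for 56 members, and for 34.8% of all genes. These counts share the DHA and Vector arrays with the 2-fold comparison above and are not separate evidence.

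DHA was also fitted over the 3 backgrounds together, with inducer as a block. In this limma fit 0 of 57 members and 0 of 13478 genes passed an adjusted p of 0.05 (0.0% in each direction). The members had a median of -0.20 and a lowest adjusted p of 0.291, and 6 had an unadjusted p under 0.05, all lower, where 7.46% of all genes were lower at this level. Without the Vector background, in the Snail and TGF-β pairs alone, the members' median was 0.21, and MAD2L1 and SPC25 were called higher (lowest adjusted p = 0.0109 in limma), beside 2.68% of genes called higher and 3.73% lower.

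Between an inducer alone and Vector, 2-fold differences were uncommon among the mitosis genes and also among all genes. Against Vector, Snail cells had 0 members 2-fold higher and 0 lower, beside 4.21% and 4.44% of 12453 genes. The median was 0.10 (0.01 over all genes), or -0.03 against -0.07 with common-median scaling. KIF20A (0.73), SMC4 (0.66) and CENPF (0.63) were highest and MELK (-0.62), MAD2L1 (-0.43) and CENPN (-0.40) lowest. TGF-β cells had 1 member 2-fold higher, FOXM1 (1.14), followed by CDCA8 (0.85) and KIF2C (0.79), and 0 lower, beside 1.13% and 0.845% of 12424 genes. The median was 0.29 (0.03 over all genes) and 45 members were above 0. MAD2L1 (-0.57), BUB1B (-0.29) and CENPN (-0.28) were lowest. Both comparisons use the Vector array.

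Set against the DHA array, the DHA-fed induced cells were higher throughout. Snail+DHA exceeded DHA by at least 2-fold in 46 of 57 members (median 1.34) beside 4.47% of genes (5.68% lower), with CDCA3 (2.12), NDC80 (2.003) and HJURP (1.91) highest and PTTG1 (0.24), BUB3 (0.53) and BUB1B (0.60) lowest. TGF-β+DHA exceeded it by at least 2-fold in 46 members (median 1.499) beside 1.9% of genes (1.92% lower), with HJURP (2.06), CCNA2 (2.05) and UBE2C (1.88) highest and BUB3 (0.06), CDC25B (0.24) and GTSE1 (0.43) lowest. Both comparisons use the DHA array, as does that with Vector, and all 3 rest on this single array.

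A lower threshold of 1.5-fold shows the smaller differences. With DHA in Vector cells 49 of 57 members were lower and 0 higher by this measure, beside 4.05% and 2.77% of all genes. In Snail cells 9 members were higher with DHA and 0 lower (6.49% and 8.18% of genes), and in TGF-β cells 6 were higher and 3 lower (8.06% and 11.9%). Snail alone had 5 members higher and 1 lower than Vector (10.7% and 11.0%), and TGF-β alone 8 higher and 0 lower (7.06% and 4.28%). Above the DHA array, 55 members were higher in Snail+DHA and 53 in TGF-β+DHA, with 0 lower in each (12.6% higher and 12.5% lower of genes, and 5.8% and 6.14%).

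In the additive fit each inducer was compared with Vector over both DHA states. The Snail term was above 0 in all 57 members (median 0.74) and the TGF-β term likewise (median 0.82), but 0 members passed an adjusted p of 0.05 in either, with lowest adjusted p of 0.0514 and 0.518 in limma. Over all genes, 3.33% were called higher and 4.34% lower for Snail, and 0.00742% higher and 0.0519% lower for TGF-β. At an unadjusted p under 0.05 there were 27 members for Snail and 37 for TGF-β, all higher, beside 10.6% and 3.23% of all genes. KIF20A was called for Snail when no detection filter was used, and CENPF and KIF20A when the probe of highest variance represented each gene. In these settings 451 of 20046 and 503 of 13239 genes were called higher, beside 1 of 58 and 2 of 57 members. Part of the reference in both terms is the DHA array. For gene set enrichment, the study grouped the cells with less stable rafts (Snail and TGF-β) against the other 4. It reported changes in cell cycle regulation, among others. A gene-by-gene fit of this grouping, another measure, gave 0 members and 0 genes at an adjusted p of 0.05 in limma (0.0% each way). The median of the members was 0.26 and the lowest adjusted p 0.649, with 1 member at an unadjusted p under 0.05, higher, beside 4.5% of all genes, and leaving out the DHA array moved the median to -0.03.

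Other cell cycle genes, from lists by function, show how far the DHA difference in Vector cells reached. Of 42 further mitosis genes, 41 were lower on the DHA array, 7 by at least 2-fold, with a median of -0.64; CDKN3, a phosphatase that peaks in mitosis (-1.57), and CEP55, which recruits the abscission machinery (-1.40), had the widest differences. Cohesin and constitutive kinetochore genes, which are needed in mitosis but are expressed through the cycle, lay at a median of -0.25. Of these 25 genes, 21 were below 0 and 0 reached 2-fold. The 12 measured subunits of the anaphase-promoting complex itself had -0.08, with 9 below 0 and again 0 at 2-fold. Genes of DNA replication and the G1/S transition had a median of -0.24, with 42 of 45 below 0. Among them 1 was 2-fold lower, the salvage enzyme TK1 (-1.09). Over all genes compared, 6281 of 12255 were below 0. The 22 cell cycle transcription regulators had -0.09, with 14 below 0. The 12 CDK inhibitors and G1 cyclins had -0.14, with 7 below 0 and cyclin D1 (CCND1, 0.69) and cyclin D2 (CCND2, 0.43) on the higher side.

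**Figure D4:**
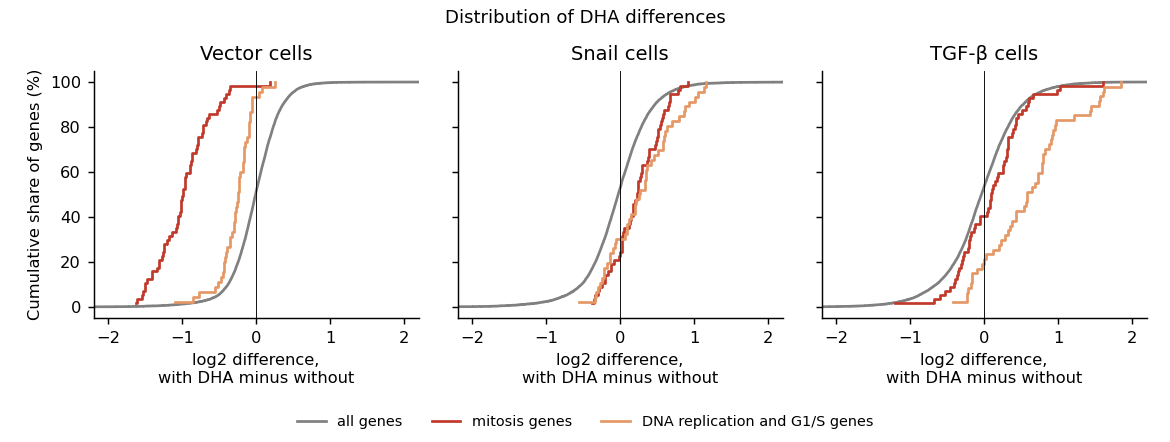
Cumulative share of genes (vertical axis, percent) against the log2 difference with DHA minus without (horizontal axis) in Vector, Snail and TGF-β cells, for all genes (grey), mitosis genes (red) and genes of DNA replication and G1/S (orange), 1 pair of arrays per panel. The red curve lies left of the others in Vector cells (median -0.99), and in TGF-β cells the orange curve lies farthest right (median 0.58).

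In induced cells the lists took another order. With DHA in TGF-β cells, replication and G1/S genes lay at a median of 0.58, and 8 of 47 passed 2-fold upward, led by the replication factor MCM10 (1.85) and the flap endonuclease FEN1 (1.62), against 0.09 for the mitosis genes. In Snail cells the same list had 0.26 with 4 of 46 higher, among them GINS2, a part of the replicative helicase (1.13), against 0.23. The replication list kept a median above 0 under common-median scaling, 0.50 in TGF-β cells and 0.05 in Snail cells. Further mitosis genes had medians of 0.20 in Snail and 0.17 in TGF-β cells, where TRIP13, which takes the checkpoint complex apart (1.59), and KPNA2, an importin (1.00), were 2-fold higher.

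**Figure D5:**
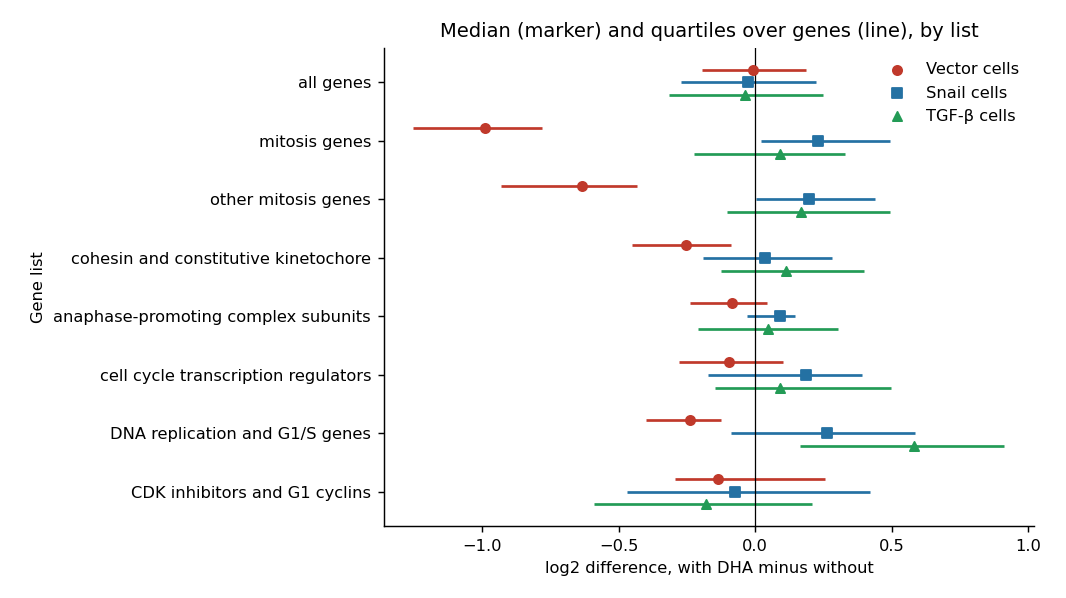
Median (marker) and quartiles (line) over genes of the log2 difference with DHA minus without (horizontal axis), for all genes and 7 gene lists (vertical axis), in Vector (circles), Snail (squares) and TGF-β cells (triangles), 1 pair of arrays each. In Vector cells the 2 mitosis lists lie at -0.99 and -0.64, and the other lists between -0.25 and -0.08.

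The labelled cell type was checked against its markers. All 5 basal mammary epithelial markers with a probe were above background on all arrays, with a median of 11.40 in Vector and 9.54 in Snail cells, and mesenchymal markers had medians of 6.37 and 10.40. In TGF-β cells all 5 basal markers were above their Vector values, with a median level of 12.47 (12.79 with DHA). The mesenchymal median was 7.01 (6.49 with DHA), but only 4 of these 10 markers were above background on all arrays. Between TGF-β and Vector cells, 7 mesenchymal markers could be compared, 5 higher with TGF-β and 2 lower, with a median difference of 0.73. At least 2-fold higher were 3 of the 7, among them VIM (1.78) and CDH2 (1.10), beside 1.13% of all genes. Gene by gene, 6 mesenchymal markers were above background in the TGF-β pair. With DHA 2 of them were higher and 4 lower, with a median difference of -0.23. Of the 5 basal markers, 2 were higher with DHA and 3 lower. KRT17 and TP63 were not analysed here. Of 16 leukocyte genes, a cell type that the culture should lack, 10 were above background on at least 1 array and 4 on all 6, with PTPRC (CD45), the defining gene, on none, and the median of the list was between 6.24 and 6.44 on every array. Some members stood well above that median. CD68 measured 8.39 in Vector and 10.42 in Snail cells, and CSF1R 7.50 in Vector and 8.57 in TGF-β cells.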

How the data were processed

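RNA of 6 HMLE cultures was hybridized to 6 arrays, 1 per condition, on 1 BeadChip. The authors deposited a table of non-normalized intensity values for 47323 probes, made with the IlluminaExpressionFileCreator module of GenePattern, and a quantile-normalized table in log2 units with a median of 6.30 on each array; the base of the logarithm is inferred from its range. The log2 table gave the values reported. Slopes against it were 0.962 to 1.04 for the natural logarithm of the intensities and 1.39 to 1.51 for the base-2 logarithm, and 1431 to 1805 intensities per array exceeded 65535, so signals were restored as 2 to the power of the natural logarithm. These restored signals served for detection (p under 0.05 from the peak of low signals and the spread below it; 36.7% to 44.1% of probes per array) and for alternatives with normexp (offset 50). Detection p-values and control probes were not used here. The number of arrays limits the precision.

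Of the probes, 30113 have 1 gene symbol in the platform table, 8 several and 17202 none. The probe with the largest mean stood for each of 20046 genes; 13478 were above background on at least 1 array. Pairs of arrays were compared by counts of log2 differences of at least 1. A member above background on 1 array of a pair got a bound, against the lowest signal above background on the other array. Fits used limma 3.58.1 (variance trend, two-sided, Benjamini-Hochberg, 0.05) in R 4.3.3; other steps used Python 3.11.15. The fits were tested on simulated data. These held each gene's mean, noise sized by the residuals of the additive fit, and the added changes, with no other inducer or DHA differences. Of the simulated 2-fold changes, 38% were called for DHA over 3 backgrounds and 15% for each inducer term. The raft grouping called 66% of them, without the inducer and DHA differences that add to its error in the data. The interaction called 0%, also of 4-fold changes, with noise that already held differences of the DHA effect between cell types. The shares for the raft grouping and the interaction may therefore not hold for the data. A count of 0 called members in these fits therefore does not show that nothing changed. The members and lists were chosen with earlier results of these data known. All listed members could be named; 6-array values were fixed for CCNB1, CDK1, MKI67, TOP2A, PLK1, AURKA, FOXM1 and UBE2C and for the 3 highest and 3 lowest members of each pair, and at most 2 genes of another list were named per pair (PTPRC, as the defining leukocyte marker, and further members were named beside these). Alternatives were restored intensities, common-median scaling, other detection filters, the probe of highest variance, every probe, no variance trend, a 1.5-fold threshold and leaving out arrays.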

Additional observations from a re-analysis of the deposited data

Results flagged for a closer look

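The DHA difference of UBE2C in Vector cells minus the mean of those in induced cells was -1.77 ± 0.29 (SE) in log2 units (adjusted p = 0.0382, limma interaction). It did not pass with restored intensities (adjusted p = 0.0913 in limma), common-median scaling (0.108) or genes above background on all 6 arrays (0.0764), and passed without a detection filter (0.0143) and with the probe of highest variance (0.0249). The error comes from Snail against TGF-β cells and does not cover the single pair of Vector and DHA arrays.

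The median DHA difference of the mitosis genes was -0.99 in Vector cells and above 0 in Snail and in TGF-β cells (0.23 and 0.09), of the further mitosis genes -0.64 against 0.20 and 0.17, and of the replication and G1/S genes -0.24 against 0.26 and 0.58. These differences between cell types were not tested for the lists. The induced medians of the mitosis genes were -0.02 and -0.08 under common-median scaling.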

How the results depend on the processing

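The fit of DHA over 3 backgrounds pairs the arrays by inducer; a block by replicate could not be fitted, since each condition has 1 array. The counts and medians of members in the 7 pairs of arrays and the 4 fits without interaction kept their side of the threshold under restored intensities. With common-median scaling, where the median of all genes was -0.22 in DHA minus Vector, the members' values were 45 lower and a median of -1.33 for DHA minus Vector, -0.0153 for Snail+DHA minus Snail, 1 higher and -0.0847 for TGF-β+DHA minus TGF-β, -0.0342 for Snail minus Vector, 1.22 for Snail+DHA minus DHA and 1.69 for TGF-β+DHA minus DHA. At 1.5-fold the counts were 49 lower for DHA minus Vector, 9 higher for Snail+DHA minus Snail, 6 higher and 3 lower for TGF-β+DHA minus TGF-β, 5 higher and 1 lower for Snail minus Vector and 8 higher for TGF-β minus Vector. Counting every member probe, an alternative chosen after seeing the data, gave medians of 1.22 and 1.26 for Snail+DHA and TGF-β+DHA minus DHA. For Snail over 2 DHA states, 1 member was called higher without a detection filter and 2 with the probe of highest variance. Over all genes, 451 of 20046 and 503 of 13239 were called higher there. For the interaction, 0 members were called lower with restored intensities, common-median scaling or genes above background on all 6 arrays. There were 4 without a filter, beside 37 of 20046 genes, and 3 with the probe of highest variance, beside 38 of 13239. Leaving out each background in turn, between 0 and 2 members were called higher for DHA over 3 backgrounds, the 2 when Vector was left out, and 0 lower. In the raft grouping the median of the members ranged from -0.03 (without the DHA array) to 0.43, with 0 called. The causes were not tested. With 1 array per condition, a difference cannot be set against the spread of repeated cultures. Genes near background, such as MKI67, have bounds only.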
